A study of Mus musculus with 2 samples.

Results

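The microRNAs miR-9 and miR-124 are each encoded by 3 hairpin genes in the mouse, and this account covers the 6 rows that hold them, of 1973 microRNA gene rows in the tables. The rows were chosen by gene symbol, with identifiers matched to the GENCODE annotation: Mir9-3, Mir9-2, Mir124a-1, Mir124a-2, Mir124a-3 and Gm25641. Gm25641 is annotated on the strand opposite to Mir9-1. Its row was chosen to stand for Mir9-1, through reads on the strand opposite to Gm25641, and is read here as Mir9-1. Small RNA was sequenced from whole forebrains of newborn mice (postnatal day 0, strain B6NCrl), 1 forebrain from pup 3 and 1 from pup 1. Both samples form 1 group, no allele or treatment is named in the labels, the sex was not collected, and both pups list the same donor record. With 1 tissue and 1 age there is no contrast between conditions, and the pups serve as the measure of spread.

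A microRNA hairpin is cut out of a longer transcript and then trimmed to a duplex, of which 1 or both arms (5p and 3p) are loaded into Argonaute and guide it to messenger RNAs that pair with the seed, bases 2 to 8 of the arm. In the developing forebrain miR-9 is known for limiting the self-renewal of neural progenitors, through targets such as Hes1 and Nr2e1, and for favouring neurogenesis. miR-124 is known as a microRNA of neurons that lowers non-neuronal transcripts, among them that of the splicing repressor Ptbp1. Since each is made from several gene copies, a read of the mature arm alone can match several places in the genome.

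The mature arms and hairpins of miR-9 are shown because the copies differ in the bases around the arms and not in the arms themselves. They are from RefSeq on GRCm38.p6, and of the 6 rows 3 had an entry in that table, Mir9-3, Gm25641 and Mir9-2, with a further entry for Mir9-1. Capitals mark the seed in the mature arms. The arms of miR-9b, which RefSeq places on the strand opposite to the Mir9 hairpins, follow those of miR-9.
miR-9-5p: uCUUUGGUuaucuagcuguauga
miR-9-3p: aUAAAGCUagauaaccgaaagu
miR-9b-5p: uUCGGUUAucuagcuuuauga
miR-9b-3p: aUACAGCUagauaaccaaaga
The 4 seeds all differ, and no other mature entry of the table carries any of them. In the hairpins below, capitals mark the 5p and the 3p arm.
Mir9-3: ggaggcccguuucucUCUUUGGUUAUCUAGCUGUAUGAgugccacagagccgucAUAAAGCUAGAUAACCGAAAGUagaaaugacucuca
Mir9-1: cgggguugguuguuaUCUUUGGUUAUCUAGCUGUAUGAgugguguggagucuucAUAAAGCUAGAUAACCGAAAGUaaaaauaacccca
Mir9-2: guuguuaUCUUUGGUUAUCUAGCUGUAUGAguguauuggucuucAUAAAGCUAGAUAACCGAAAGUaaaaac

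Both arms were letter for letter the same in the 3 copies, and each was found at 3 places among annotated hairpins. On global alignment the hairpins of Mir9-3 and Mir9-1 were 78.9% identical, those of Mir9-1 and Mir9-2 78.7%, and those of Mir9-3 and Mir9-2 71.1%. The copies became distinct at different distances from the arms. The 3p arm, shown here with the next 6 bases of each hairpin in capitals, was found at a single annotated place with 2 further bases in Mir9-3, but only with 6 in Mir9-1 and 6 in Mir9-2.
Mir9-3: auaaagcuagauaaccgaaaguAGAAAU
Mir9-1: auaaagcuagauaaccgaaaguAAAAAU
Mir9-2: auaaagcuagauaaccgaaaguAAAAAC
On the 5′ side of the 5p arm, 1 further base was enough in Mir9-3 and 8 were needed in Mir9-1. The previous 6 bases, in capitals, are the same in Mir9-1 and Mir9-2 and differ in Mir9-3. In Mir9-2 the 7 bases that its hairpin holds on that side did not make the arm distinct.
Mir9-3: UUUCUCucuuugguuaucuagcuguauga
Mir9-1: UUGUUAucuuugguuaucuagcuguauga
Mir9-2: UUGUUAucuuugguuaucuagcuguauga
On the 3′ side of the 5p arm the 3 copies each needed 4 bases, and on the 5′ side of the 3p arm Mir9-3 needed 3 and the others 7.

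The genes lie on 5 chromosomes, with positions on GRCm38 (the assembly that mm10 names) from GENCODE M21. Mir9-3 (ENSMUSG00000093238.1) is a plus-strand gene of chromosome 7, from 79505264 to 79505353, within an intron of its noncoding host Mir9-3hg. Mir9-1 is a plus-strand gene of chromosome 3, from 88215598 to 88215686, in an intron of the noncoding gene Gm3764, and Gm25641 (ENSMUSG00000092876.1) spans it on the minus strand from 88215589 to 88215696. Mir9-2 (ENSMUSG00000065424.1) is a plus-strand gene of chromosome 13, from 83738814 to 83738885 and lies wholly within an exon of the noncoding gene C130071C03Rik. Mir124a-1 (ENSMUSG00000065597.1) is a plus-strand gene of chromosome 14, from 64590657 to 64590741, wholly within an exon of its noncoding host Mir124a-1hg. Mir124a-2 (ENSMUSG00000093073.1) is a plus-strand gene of chromosome 3, from 17795662 to 17795770, and 27 of its 109 bases overlap an exon of Mir124-2hg. Mir124a-3 (ENSMUSG00000065454.1) is a plus-strand gene of chromosome 2, from 180894040 to 180894107, and its last 3 bases overlap the noncoding gene Gm27032. For Mir9-2 and Mir124a-3 the annotation used for positions carries a later version of the identifier than the tables.

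The libraries held 18798326 reads in pup 3 and 22470992 in pup 1, of which 7678662 and 9037087 were assigned to a microRNA gene. A further 8171236 reads in pup 3 and 9673667 in pup 1 matched several places, and the tables tally them apart from the gene counts. Of 8 brain microRNA genes checked as markers of the tissue, all 8 had 10 or more counts in both pups, beside 21.9% of all 1973 rows. Their summed level was 57604 counts per 1000000 assigned reads (CPM) in pup 3 and 45375 CPM in pup 1. Of 6 genes of the Hox clusters, which mark tissue behind the forebrain, 4 reached the same minimum. The 6 summed to 148 and 196 CPM, with Mir196a-1 at 0 in both pups. Liver Mir122 also reached it, at 75.0 and 54.0 CPM, as did all 3 blood genes, which summed to 514 and 346 CPM. Of the 4 measured muscle genes 1 reached it. They summed to 44.5 and 94.8 CPM, with Mir1a-1, Mir133a-1 and Mir133a-2 at 0. The muscle zeros and that of Mir196a-1 are at numbered copies, and a read that matches several copies is not counted at any. Those zeros therefore do not show absence. Endothelial Mir126a was at 36865 CPM in pup 3 and 40491 CPM in pup 1, far above the other non-brain markers. This 1 gene was below the sum of the brain genes but above each of them, the highest being Mir137 at 33595 and 24345 CPM.

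The miR-9 and miR-124 rows held few of the assigned reads. Together they had 6185 counts in pup 3, a share of 0.0805% (95% Wilson interval 0.0786 to 0.0826), and 4336 counts in pup 1, or 0.0480% (0.0466 to 0.0494). The mean share was 0.0643% ± 0.0230 (SD, n = 2). For each of these counts, 1321 reads in pup 3 and 2231 reads in pup 1 stood in the tally of reads that map to several places. The tally carries no sequences, so how many of its reads belong to miR-9 or miR-124 was not tested. Levels in the tables are therefore those of reads that could be placed at a single hairpin, and they are not levels of the mature microRNAs. In whole tissue, fewer cells of a type and less RNA per cell cannot be told apart. All intervals treat each read as independent and cover counting error only. The sources name no molecular identifiers, so reads copied from 1 molecule cannot be told apart, and the intervals may be too narrow.

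Of the 6 rows 5 had 10 or more counts in both pups, beside 21.9% of all 1973 rows, and Mir124a-2 did not. Mir9-3 had by far the most reads, with 5252 counts in pup 3 and 3449 in pup 1, which is 684 CPM (95% exact Poisson interval 666 to 703) and 382 CPM (369 to 395). The Mir9-1 row followed with 782 and 790 counts, or 102 CPM (94.8 to 109) and 87.4 CPM (81.4 to 93.7). Mir9-2 had 12 counts in each pup, or 1.56 CPM (0.808 to 2.73) and 1.33 CPM (0.686 to 2.32). The copies of miR-9 thus stood in the same order in both pups, with intervals that did not overlap.

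The miR-124 copies were lower as a family than the miR-9 copies, and their order was less clear. Mir124a-1 had 113 counts in pup 3 and 45 in pup 1, or 14.7 CPM (12.1 to 17.7) and 4.98 CPM (3.63 to 6.66). Mir124a-3 had 20 counts in each pup, or 2.60 CPM (1.59 to 4.02) and 2.21 CPM (1.35 to 3.42). Mir124a-2 had 6 counts in pup 3 and 20 in pup 1, or 0.781 CPM (0.287 to 1.70) and 2.21 CPM (1.35 to 3.42). Mir124a-1 was above both other copies in each pup without overlap of the intervals, while Mir124a-3 and Mir124a-2 overlapped in both.

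**Figure D1:**
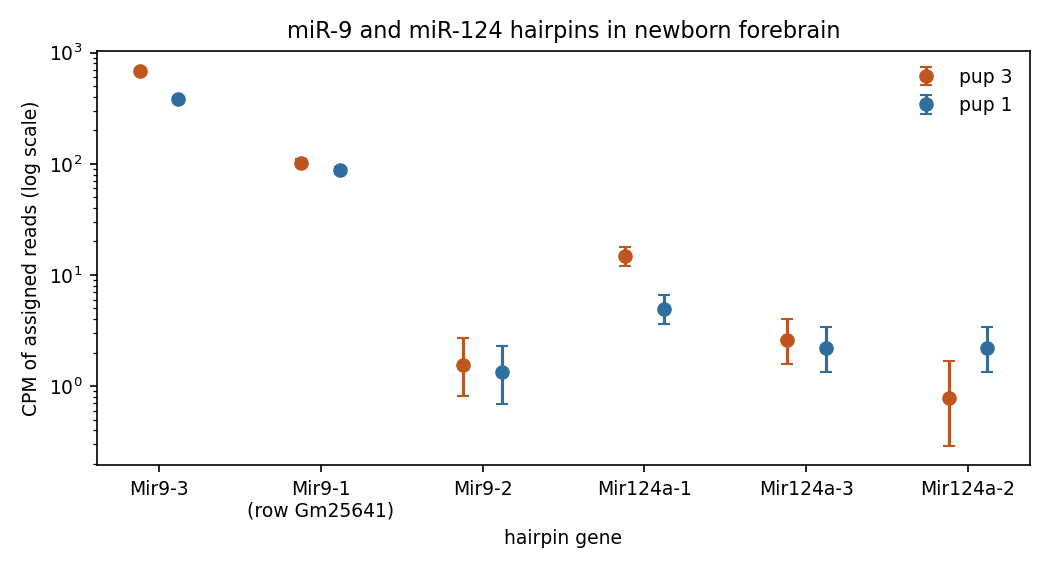
Level of each hairpin gene in CPM of assigned reads on a log scale, in pup 3 and pup 1, with 95% exact Poisson intervals of the count. Mir9-3 stands at 684 and 382 CPM, the Mir9-1 row near 100, and the other 4 genes under 15 in both pups.

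On the mean of the pups the levels ran from Mir9-3 at 533 ± 214 CPM over the Mir9-1 row at 94.6 ± 10.2 CPM, Mir124a-1 at 9.85 ± 6.88 CPM, Mir124a-3 at 2.41 ± 0.277 CPM and Mir124a-2 at 1.497 ± 1.01 CPM to Mir9-2 at 1.45 ± 0.166 CPM (SD, n = 2). The lowest 3 had overlapping count intervals in each pup, so their order is not settled at this depth. A small RNA read spans a whole arm, so counts were not scaled by length. Per 100 bases of annotated hairpin the levels were 592, 87.6, 11.6, 3.54, 1.37 and 2.01 CPM in the same sequence of genes, which places Mir9-2 above Mir124a-2. The value of the Mir9-1 row uses the 108 bases of Gm25641, whereas the Mir9-1 hairpin has 89. Among all 1973 rows, 114 had more counts than Mir9-3 in pup 3 and 146 in pup 1, while 206 and 231 had more than the Mir9-1 row. For Mir124a-1 these numbers were 287 and 354.

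Within each family 1 copy held more reads than either other copy. Mir9-3 took 86.9% of the 6046 reads counted at miR-9 copies in pup 3 (95% Wilson interval 86.0 to 87.7) and 81.1% of 4251 in pup 1 (79.9 to 82.3). The Mir9-1 row took 12.9% (12.1 to 13.8) and 18.6% (17.4 to 19.8), and Mir9-2 took 0.198% (0.114 to 0.347) and 0.282% (0.162 to 0.493). Mir124a-1 took 81.3% of 139 miR-124 reads in pup 3 (74.0 to 86.9) and 52.9% of 85 in pup 1 (42.4 to 63.2). Mir124a-3 took 14.4% (9.51 to 21.2) and 23.5% (15.8 to 33.6), and Mir124a-2 took 4.32% (1.99 to 9.10) and 23.5% (15.8 to 33.6). The top copy was the same in both pups for each family.

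The balance between copies differed between the libraries for 3 of the 6 pairs within a family, beside 52.4% of 21 pairs in other numbered families (11 called). These pairs were compared with two-sided Fisher's exact tests on the counts, which need no scaling between libraries, were chosen after the values were seen, and compare these libraries only. P-values were adjusted over all 27 pairs. Mir9-3 had 6.72 reads for each read of the Mir9-1 row in pup 3 and 4.37 in pup 1, an odds ratio of 1.54 (exact test, Benjamini-Hochberg adjusted p = 2.56e-14). Mir124a-1 had 18.8 reads for each read of Mir124a-2 in pup 3 and 2.25 in pup 1, an odds ratio of 8.37 (exact test, adjusted p = 1.11e-05). Mir124a-1 over Mir124a-3 was 5.65 in pup 3 and 2.25 in pup 1, an odds ratio of 2.51 (exact test, adjusted p = 0.0266). Mir124a-3 over Mir124a-2, at 3.33 and 1, had an odds ratio of 3.33 that did not pass (exact test, adjusted p = 0.0715). Both pairs with Mir124a-3 take its reads on either strand. On the microRNA strand alone Mir124a-3 had 16 counts in pup 3 and 10 in pup 1. The balance of these pairs on that strand alone was not tested. Mir9-2 had too few counts for a narrow estimate: Mir9-3 over Mir9-2 was 438 in pup 3 and 287 in pup 1, with an odds ratio of 1.52 (exact test, adjusted p = 0.391), and the Mir9-1 row over Mir9-2 was 65.2 and 65.8, with an odds ratio of 0.990 (exact test, adjusted p = 1).

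**Figure D2:**
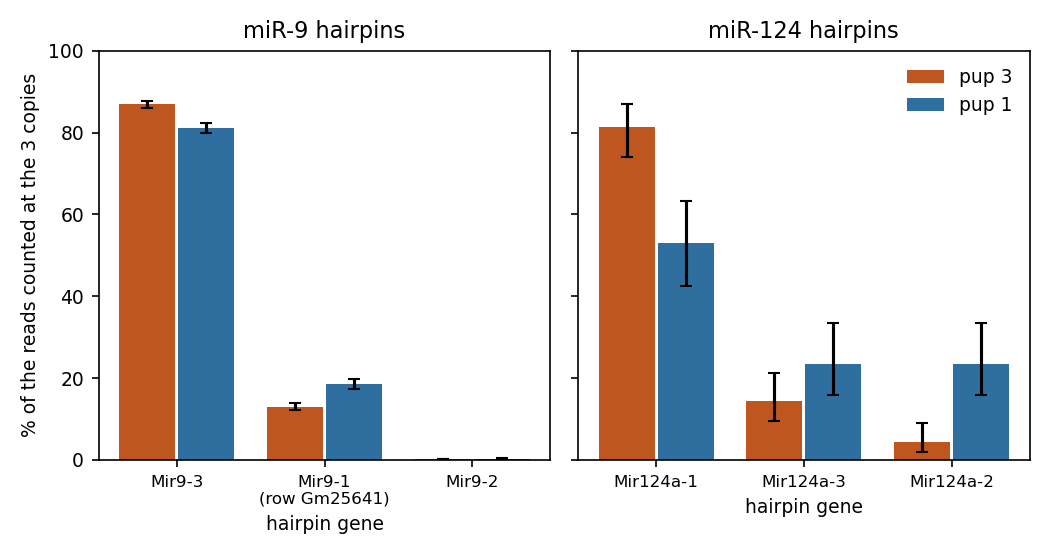
Share of the reads counted at the 3 copies of each family that lay at each copy, in pup 3 and pup 1, with 95% Wilson intervals. Mir9-3 holds 86.9% and 81.1% of its family and Mir124a-1 holds 81.3% and 52.9%.

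Nearly all reads at these genes lay on the strand of the microRNA, with Mir124a-3 as the exception. At Gm25641, a row chosen to stand for Mir9-1, all 782 reads in pup 3 and all 790 in pup 1 lay opposite to the annotated gene and thus on the strand of Mir9-1. Its own strand, where RefSeq places miR-9b, had 0 reads, which at 3 counts per library leaves room for 3.91e-05% of assigned reads (pup 3) and 3.32e-05% (pup 1). At Mir9-3, 3 of 5252 reads in pup 3 and 6 of 3449 in pup 1 lay on the other strand, which RefSeq also assigns to miR-9b, and Mir9-2 had 0 there in both pups. The arms of miR-9b are themselves at several places in RefSeq, 3 for miR-9b-3p and 2 for miR-9b-5p, so these are counts of reads that could be placed at 1 hairpin.

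At Mir124a-3, 4 of 20 reads in pup 3 lay opposite to the gene, or 20% (95% Wilson interval 8.07 to 41.6), and 10 of 20 in pup 1, or 50% (29.9 to 70.1). At Mir124a-1 and Mir124a-2 the opposite strand held 0 reads in both pups. Summed over all rows, the share of opposite-strand reads was 1.91% in pup 3 and 2.69% in pup 1. Of 389 rows with 20 or more counts in each pup, 343 had no opposite read in either. A further 11 rows, Gm25641 among them, had at least 99% of reads on the opposite strand in both pups, and 2 had at least 20% in both without reaching 99%, namely Mir124a-3 and Mir3083. On its own strand Mir124a-3 kept 16 counts in pup 3 and 10 in pup 1. Mir124a-3 was picked out for its strands after the values were seen.

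The hairpins differ in how much of their sequence is their own. Of the 22-base windows of each hairpin, 87.0% (60 of 69) were found in no other annotated hairpin for Mir9-3, 72.4% (63 of 87) for Gm25641 and 52.9% (27 of 51) for Mir9-2. The values were 67.2% (43 of 64) for Mir124a-1, 57.4% (27 of 47) for Mir124a-3 and 70.5% (62 of 88) for Mir124a-2. The windows were searched on both strands among the annotated hairpins of GENCODE M21 and not in the genome, and genes overlapping at 1 locus counted as 1 place. Of the hairpins searched, 1894 matched a row of counts. Windows include loop and flanks, so their share says nothing by itself of where the reads lay.

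Among the miR-9 copies the order of counts was the order of these shares, with the longer Gm25641 standing for Mir9-1. Mir9-3 was also the copy whose arms needed the fewest bases to become distinct on 3 of the 4 sides. Among the miR-124 copies Mir124a-2 had the highest share and, in pup 3, the lowest count. The part of sequence sharing in these levels was not tested, since the tables hold no read positions. Of 874 other hairpins with a shared window, 70 were detected by the same minimum (8.01%), beside 358 of 1014 hairpins in which each window was found once (35.3%). Of 34 rows whose RefSeq arms all occur at several places, 9 were detected (26.5%), beside 41 of 53 with some but not all arms shared (77.4%) and 337 of 829 with no shared arm (40.7%). Of the 9, 3 are Mir9-3, Gm25641 and Mir9-2. Gm25641 entered this group by the miR-9b arms that RefSeq gives it, whereas its counted reads lay on the strand of Mir9-1. The miR-9 arms of Mir9-1 are also shared, each at 3 places. Mir9-3 was second among the 9, below Mirlet7c-2 at 2075 CPM in pup 3 and 972 CPM in pup 1.

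**Figure D3:**
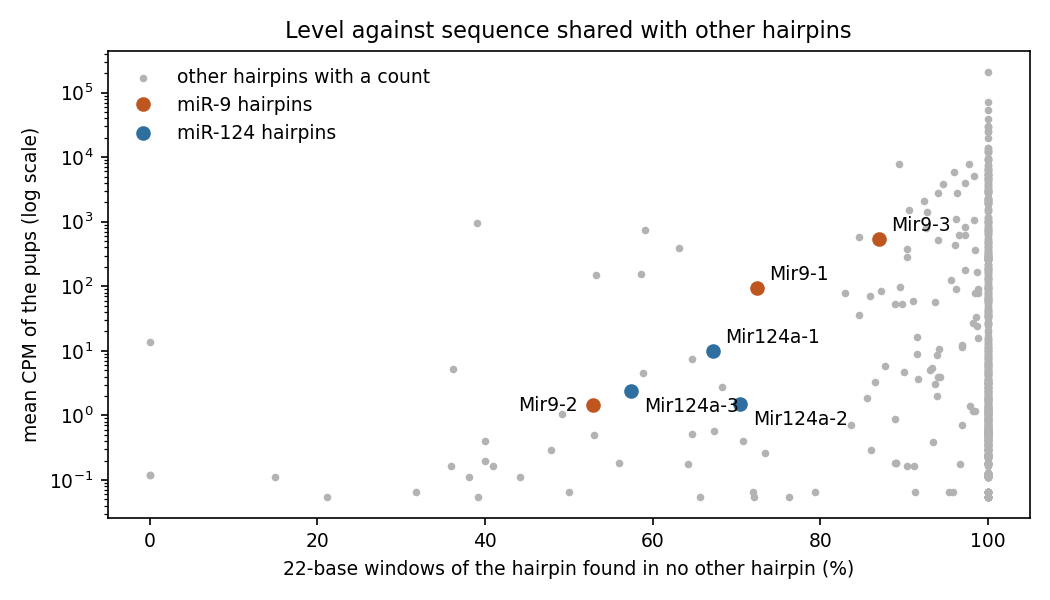
Mean CPM of the pups on a log scale against the percentage of each hairpin's 22-base windows found in no other annotated hairpin; hairpins with no count are not drawn. The miR-9 and miR-124 hairpins lie between 52.9% and 87.0%, and of 733 other hairpins at or under 87.0%, 16 had 10 or more counts in both pups.

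Between the pups, 3 of the 6 genes were called, all higher in pup 3, by a two-sided exact binomial test on the counts with TMM scaling and Benjamini-Hochberg adjustment at 0.05 over 460 rows with a total of 20 or more counts. The same test called 63% of those 460 rows, 30.2% as higher and 32.8% as lower in pup 3, so a call of this kind was common. The test sets 1 library against another and does not compare conditions. As a measure of spread, edgeR put the biological coefficient of variation at 0.304 across 301 genes with at least 10 CPM in each pup.

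The folds that follow are on TMM-scaled counts, whereas the CPM values above are per total assigned reads and give smaller ratios. Mir124a-1, with 113 counts in pup 3 and 45 in pup 1, was 3.37-fold higher in pup 3 under TMM scaling (log2 ratio 1.75, 95% exact binomial interval 1.25 to 2.30, adjusted p = 7.90e-13 by the exact binomial test). Mir9-3, with 5252 and 3449 counts, was 2.06-fold higher in pup 3 (log2 ratio 1.04, interval 0.98 to 1.10, adjusted p = 6.11e-244 by the exact binomial test), and 34 of 310 genes that averaged at least 10 CPM (11.0%) had a log2 ratio at least as far from 0. The Mir9-1 row, with 782 counts in pup 3 and 790 in the deeper library of pup 1, was 1.34-fold higher in pup 3 (log2 ratio 0.42, interval 0.28 to 0.56, adjusted p = 2.12e-08 by the exact binomial test), and 138 of the 310 genes (44.5%) lay as far. Among those 310 genes, 7.74% were at least 2-fold higher in pup 3.

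The other 3 genes did not pass the test, and their intervals were wide. Mir9-2 and Mir124a-3 each had a log2 ratio of 0.44, with intervals of -0.85 to 1.72 for Mir9-2 and -0.53 to 1.40 for Mir124a-3 (exact binomial test, adjusted p = 0.619 and 0.417). Mir124a-2 had a log2 ratio of -1.22 (interval -2.91 to 0.07, exact binomial test, adjusted p = 0.0728). Scaling by total assigned counts shifted the 310 genes by -0.20 at the median on the log2 scale. Under it the folds were 2.94 for Mir124a-1, 1.79 for Mir9-3 and 1.17 for the Mir9-1 row, all still called higher, and Mir124a-2 was called lower at a log2 ratio of -1.42 (exact binomial test, adjusted p = 0.0433). On its own strand alone Mir124a-3 had a log2 ratio of 1.09, which did not pass (exact binomial test, adjusted p = 0.105).

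**Figure D4:**
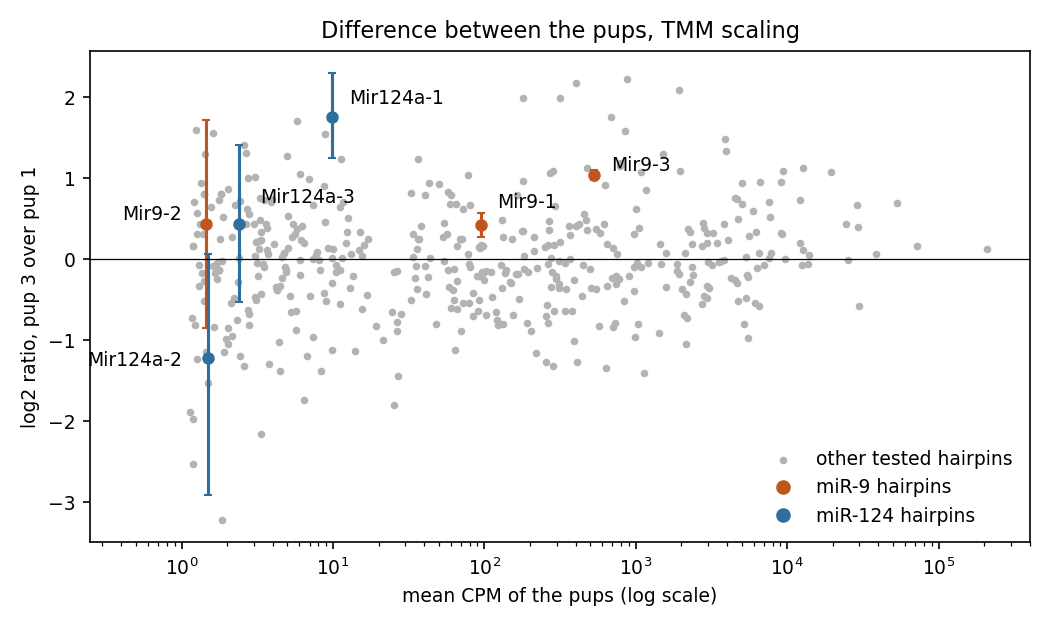
Log2 ratio of pup 3 over pup 1 under TMM scaling against the mean CPM of the pups on a log scale, for the 460 tested rows, with 95% exact binomial intervals for the miR-9 and miR-124 hairpins. Mir124a-1 stands at 1.75, Mir9-3 at 1.04 and the Mir9-1 row at 0.42, while the intervals of the other 3 cross 0.

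These copies, Mir9-3 apart, had mostly lower counts than other microRNAs of neural tissue. All 26 genes of a list of neural microRNAs were measured, and their mean levels ran from 28970 ± 6541 CPM for Mir137, known for guiding the maturation of neurons, to 3.19 ± 0.648 CPM for Mir184 (SD, n = 2). Mir9-3 stood close to Mir138-2, a copy of the synaptic microRNA miR-138, at 672 CPM in pup 3 and 387 CPM in pup 1. On the mean of the pups Mir9-3 lay mid-list, between Mir7-1 at 615 CPM and Mir138-2 at 530 CPM. Mir9-2, Mir124a-2 and Mir124a-3 were below all 26 genes in both pups. Mir124a-3 had 20 counts in pup 3 beside 21 for Mir184, so the order of these is not settled. In the test between pups, 11 of the 26 were higher in pup 3, 9 were lower and 6 did not pass, and the median log2 ratio was 0.01, beside -0.02 over the 460 tested rows. With total-count scaling 8 passed as higher and 14 as lower, and the medians were -0.19 and -0.22. Under that scaling the ratios of 5 of the 26 turned negative, among them Mir149 (0.05 under TMM, -0.15 under total counts) and Mir181a-1 (0.08 and -0.12), which passed as higher under TMM and as lower under total counts.

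Several of these neural microRNAs also have numbered copies. For the miR-128 copies, known for restraining neuronal excitability, Mir128-1 stood at 6733 CPM in pup 3 and 5104 CPM in pup 1, and Mir128-2 at 3010 and 2539 CPM. Mir138-1 was at 1406 and 767 CPM, and it was higher in pup 3 (log2 ratio 1.07, interval 1.03 to 1.12), as was Mir138-2 (1.00, 0.93 to 1.06). Mir129-2 was at 900 and 1938 CPM and Mir129-1 at 270 and 483 CPM, and both were called lower in pup 3. The miR-7 copies Mir7-1 and Mir7-2 were at 665 and 565 CPM and at 343 and 542 CPM.

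Mir181a, Mir218 and Mir219a, with 2 copies each, had the same copy above the other in both pups. Mir181a-1 was at 7503 CPM in pup 3 and 8149 CPM in pup 1, and Mir181a-2 at 66.2 and 101 CPM. Mir218-2, of a family prominent in motor neurons, was at 74.4 and 81.7 CPM and Mir218-1 at 15.9 and 16.2 CPM. Mir219a-1 and Mir219a-2, of a family that drives oligodendrocyte maturation, were at 78.8 and 105 CPM and at 17.3 and 31.4 CPM. The fold between the highest and the lowest numbered copy was 438 in pup 3 and 287 in pup 1 for Mir9-3 over Mir9-2, and 18.8 and 2.25 for Mir124a-1 over Mir124a-2. Across 21 other numbered families whose copies all had 10 or more counts in both pups, this fold had a median of 2.77 in pup 3 and 3.00 in pup 1, and its maximum was 113 and 80.4, both for Mir181a. The comparison is uneven, since those families have 2 copies each and the miR-9 and miR-124 folds are taken over 3. Mir124a-2 also fell short of the minimum that the other families had to meet. Of 106 numbered copies in 43 other families, 44 had 10 or more counts in both pups (41.5%).

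**Figure D5:**
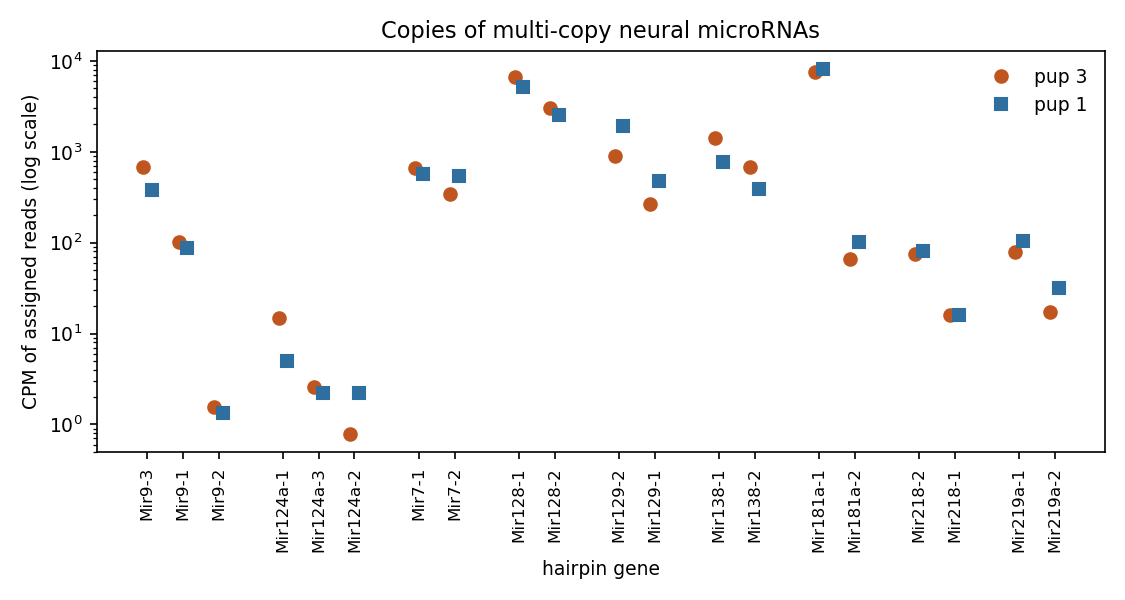
CPM of assigned reads on a log scale for the copies of miR-9, miR-124 and 7 other neural microRNAs, in pup 3 (circles) and pup 1 (squares). The copies of miR-9 span from 684 to 1.56 CPM in pup 3 and from 382 to 1.33 CPM in pup 1.

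The genes whose levels over the 2 pups were nearest to each hairpin were found by Euclidean distance in log2(CPM + 1), a measure of level more than of pattern with 2 samples. For Mir9-3 these were Mir138-2 (distance 0.03) and Mir183 (0.25), and for the Mir9-1 row Mir10b (0.17) and Mir494 (0.19). For Mir9-2 they were Mir5129 (0.08) and Mir6918 (0.10), for Mir124a-3 Mir3067 (0.14) and Mir1947 (0.14), and for Mir124a-1 Mir1969 (0.19) and Gm23134 (0.49).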

How the data were processed

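The deposited tables hold raw counts of reads per microRNA gene for 2 newborn forebrains, made by the authors on mm10 with annotation M4, per the notes deposited with the tables. The sources used here name no aligner or counter. The first count column equals the sum of the strand columns in all gene rows and was used. No source states what the strand columns hold. The earlier of them was read as the gene's own strand and the later as the opposite one, because most genes had all of their reads in the earlier. Tallies that name no gene stayed out of library sizes: reads mapping to several places were 43.5% of all reads in pup 3 and 43.0% in pup 1, unmapped reads 14.4% and 14.9%, reads in no gene 1.26% and 1.85%, and ambiguous reads 0.

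Symbols came from GENCODE M21 for 1894 of 1973 rows. CPM is counts per 1000000 assigned reads, and detection needed 10 counts in both pups. The log2 ratio used counts with 0.5 added and TMM factors of edgeR 4.0.16 (0.933 for pup 3, 1.07 for pup 1). Rows reaching 20 counts over both pups entered two-sided exact binomial tests and Benjamini-Hochberg adjustment. As 1 group has no contrast, there was no edgeR test between groups. Size factors of DESeq2 1.42.0, total counts, strand columns, count minimums and window lengths of 18 and 25 bases were alternatives. The test and the window search were checked on simulated data. The text names the 6 hairpins, the numbered copies of the neural list with Mir137, and the 2 nearest genes of each detected hairpin by rule; other names were picked with their values in view. The hairpins and lists were chosen with earlier results of these data known. Since nothing but the pup number tells the samples apart, the spread between them may be partly technical. Software was R 4.3.3, Python 3.11.15, scipy 1.17.1 and Biopython 1.88.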

Additional observations from a re-analysis of the deposited data

How the results depend on the processing

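For the 6 hairpins no ratio changed direction under any scaling, count minimum or strand column tried, while the median of the neural list was 0.01 under TMM and -0.19 under total assigned counts. The calls of Mir9-3, the Mir9-1 row and Mir124a-1 held under each. Mir124a-2, at 26 counts in all, was called lower under total assigned counts (log2 ratio -1.42) and total reads (-1.40) but not otherwise. Per 1000000 of all reads, the median level of the 6 genes was 2.49 CPM beside 6.13 CPM, since the larger total includes unassigned reads. The summed share was 0.0261% of all reads and 0.0311% of assigned plus multimapping reads. The share of windows found once was 69.5% at 22 bases, 60.0% at 18 and 77.3% at 25. With 1 pup at a time the median level ran from 3.60 to 8.66 CPM, the summed share from 0.0480% to 0.0805%, the share of Mir9-3 in its family from 81.1% to 86.9% and that of Mir124a-1 from 52.9% to 81.3%. Detection covered 4 of the 6 genes at a minimum of 20 counts, beside 389 of all 1973 rows. At a minimum of 5 counts it covered 6 of the 6, and the share of all rows at that minimum was not taken. The scaling by total counts gave 98 higher and 206 lower calls over all rows, beside 139 and 151. Leaving out a pup gives no ratio. No paired analysis was possible because the samples form a single group. Depth limits Mir9-2, Mir124a-2 and Mir124a-3, at 6 to 20 counts per library.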
